A study of Danio rerio with 6 samples.

Results

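The Hox genes of the zebrafish caudal fin were examined 24 h after amputation, in fish given Galloflavin, an inhibitor of lactate dehydrogenase, or its solvent DMSO. Members were the rows of the deposited table whose gene symbol names a Hox gene (hox, a cluster letter, a paralog number and the duplicate letter a or b), taken without regard to their values. There were 38 such genes among 19822 in the table. The tissue came from AB wild-type fish of 3 to 12 months, males and females in equal number, and was the regenerate with 1 bony-ray segment of the stump. Galloflavin was injected into the body cavity at 0.12 mg per g in DMSO, DMSO alone was injected in the other group, and all fish regenerated at 33 °C. DMSO and Galloflavin were represented by 3 libraries apiece, every one made from 10 pooled fins. The library titles call them rep B1, B2 or B3, with 1 DMSO and 1 Galloflavin library under each name. These names are read here as batches, which the titles do not state. No uninjured fin was measured, so levels describe the regenerate and not a response to amputation.

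Hox genes encode homeodomain transcription factors that lie in clusters and give cells an address along a body axis. Within a cluster, genes of low paralog number are used toward the head and genes of high number toward the tail or the tip of a limb, an order known as collinearity. Teleosts carry duplicate clusters, named here HoxAa and HoxAb, HoxBa and HoxBb, HoxCa and HoxCb, and HoxDa. In zebrafish, the group 13 genes of the A and D clusters are needed to build the rays of the pectoral fin, and hoxc13a and hoxc13b have been described in the regenerating caudal fin. Levels are given as normalised counts, the authors' counts per gene scaled within each library, with library totals of 938945 to 1093130. They were not divided by transcript length, so levels of different genes are not compared as amounts.

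Posterior genes made up most of the family in this tissue. All 23 zebrafish Hox genes of paralog groups 9 to 13 listed by RefSeq had a row, against 7 of 14 in groups 1 to 4 and 8 of 12 in groups 5 to 8. A mean of at least 1 normalised count over the 6 libraries, the minimum for testing, was reached by 21 of the 23 posterior genes, 1 central gene (hoxc8a) and 2 anterior genes (hoxa3a and hoxc3a). This minimum depends on transcript length as well as on the amount of RNA. The other 14 members had means below it. Of these, hoxa1a, hoxa2b, hoxb3a, hoxc4a and hoxd3a of groups 1 to 4 lay at 0.0530 to 1.06 in single libraries, and hoxa5a, hoxb6a, hoxb7a, hoxb8a, hoxc5a, hoxc6a and hoxc6b of groups 5 to 8 at 0.0338 to 0.901. The 2 posterior genes below it were hoxb13a and hoxd11a. Nearest to the limit were hoxb13a, with a mean of 0.999 just below it, and hoxc8a and hoxd10a, with means of 1.14 and 1.17 just above it. Another 11 Hox genes of RefSeq had no row under their symbol and were not analysed here, among them the 4 genes of HoxBb. Of 2175 rows without a symbol, a gene name table named 1485, none as a Hox gene. The rest stayed unnamed, so whether they include any of the 11 is not known. The lowest total of any row in the deposited table was 6 reads over the 6 libraries.

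**Figure D1:**
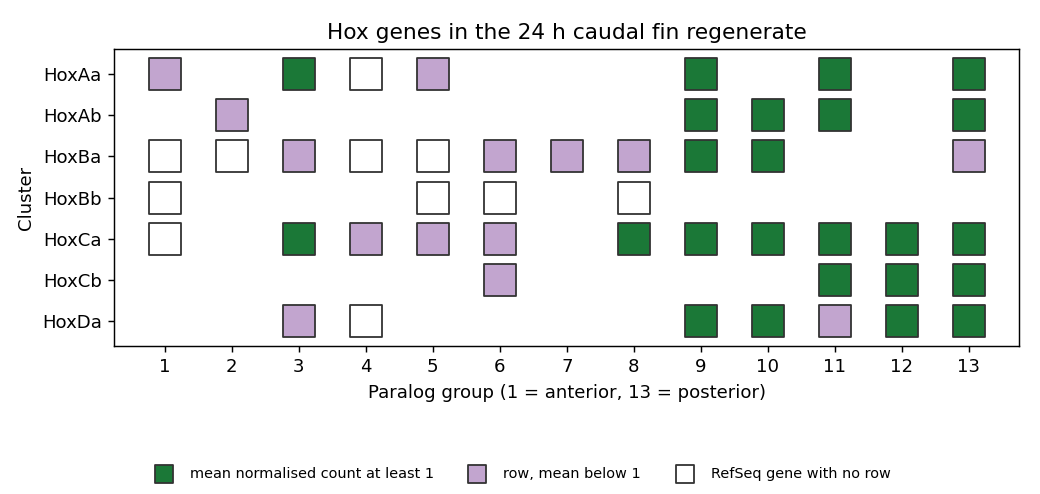
Each square is a zebrafish Hox gene listed by RefSeq, by paralog group (x axis) and cluster (y axis). Colour shows whether its mean over 6 libraries was at least 1 normalised count, below 1, or the gene had no row under its symbol. Groups 9 to 13 are filled except hoxb13a and hoxd11a, which have rows with means below 1, and groups 1 to 8 hold only 3 genes at or above 1.

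Every member had at least 1 read in each library. Of the 38, 5 had under 3 reads in some library (hoxa1a, hoxb6a, hoxc4a, hoxc5a and hoxc6b), so their values there rest on counting error. The libraries held 17712157 to 29596335 reads, with the fewest in both B3 libraries, and 1 read was worth 0.0338 to 0.0543 normalised counts. Hox genes took 9463 (B1), 10162 (B2) and 6609 (B3) reads of the DMSO libraries, and 8363, 9054 and 5576 of those with Galloflavin.

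Marker lists of the cell types that a fin can hold were read beside the Hox genes, since in bulk tissue fewer cells of a type and less RNA per cell cannot be told apart. Of 15 fin mesenchyme markers, 14 were in the table and all 14 had means of at least 1, with a summed level of 22135 to 25203 normalised counts in DMSO and 20588 to 27181 in Galloflavin libraries. All 9 basal epidermis markers were present, at 56125 to 76147 and 58572 to 75047. Of 9 osteoblast markers 8 were present, at 237 to 426 and 246 to 459. The summed ranges in DMSO and Galloflavin were 7473 to 16325 and 8380 to 16568 for 9 of 9 superficial and intermediate epidermis markers, 68.2 to 74.0 and 69.4 to 79.6 for 4 of 8 endothelial markers, and 577 to 715 and 485 to 797 for 7 of 7 macrophage markers. They were 33.5 to 65.2 and 38.7 to 69.3 for 6 of 7 neutrophil markers, 141 to 177 and 127 to 163 for 8 of 8 pigment cell markers, and 91.0 to 101 and 102 to 119 for 6 of 7 nerve and glia markers. Muscle markers summed to 6.76 to 8.22 and 7.56 to 12.5 (3 of 7 present) and blood markers to 39.6 to 123 and 45.9 to 102 (4 of 4 present). The summed levels of the groups overlapped in each list except nerve and glia, but a sum can hide changes of single markers. Batches differed in some lists. Superficial and intermediate epidermis markers summed to 7473 (DMSO) and 8380 (Galloflavin) in B3, against 11930 to 16568 in the B1 and B2 libraries. Osteoblast markers were highest in B3, at 426 and 459. The part of these differences in the Hox values was not tested. Log2 fold changes of the 7 macrophage markers ran from -0.79 to 0.95. By limma, 3 of these 7 and 2 of 8 superficial and intermediate epidermis markers had an unadjusted p under 0.05 (background 7.21%). Mesenchyme, osteoblast and neutrophil lists had 1 each and the other lists 0. None passed at an adjusted p under 0.05. No marker in the table was at 0 in all 6 libraries, but the lowest total of any row was 6 reads.

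The comparison of Galloflavin with DMSO asked whether the inhibitor alters the Hox genes of the early regenerate. None of the Hox genes passed the threshold of 0.05 on limma's adjusted p (0 of 24, background 0% of 15806 genes tested, lowest adjusted p = 0.602 for hoxa9a). At an unadjusted p under 0.05 there was 1 of 24 Hox genes, hoxa9a, or 4.17%, below the background of 7.21%. None of the 24 passed with batch as a block, with edgeR or with DESeq2 (backgrounds 0%, 0% and 0.525%). The median log2 fold change was -0.07 over the 24 Hox genes, and -0.0040 over all genes tested. Log2 fold changes and their errors and intervals are on the log2(value + 1) scale throughout, which understates the change of low genes. Values below 0 were found for 15 of 24 Hox genes, 62.5% against 50.9% of all genes.

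The batch pairs were not alike. On the deposited scale the median over the 24 Hox genes was -0.14 in B1, 0.02 in B2, close to no change, and -0.17 in B3. Over all genes tested it was 0.0084, -0.016 and 0.00075. The 14 mesenchyme markers with means of at least 1 had medians of -0.10, 0.19 and -0.21 in the same pairs, and their part in the Hox values was not tested. A Hox gene was lower with Galloflavin in 3 of 3 batches for 5 of 24 genes (20.8%, background 16.4%) and higher in 3 of 3 for 2 of 24 (8.33%, background 17%). The former were hoxa9a, hoxa11a, hoxc8a, hoxc11b and hoxd12a, and the latter hoxa10b and hoxb10a. The groups did not overlap, with every Galloflavin library below every DMSO library, for hoxa9a and hoxc11b (8.33%, background 6.47%), and 0 of 24 Hox genes lay above without overlap (background 6.97%). The shares in the lower direction are near the background, and those in the higher direction are below it. With 24 genes, each gene makes up 4.17% of the family.

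On the log2(value + 1) scale the 95% interval lay within 1.5-fold in either direction for 14 of 24 Hox genes (58.3%, against 63.2% of all genes tested). This is no limit on the fold of the level for low genes, whose intervals the added 1 shortens. For the other 10 the interval reached past 1.5-fold even on this scale.

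**Figure D2:**
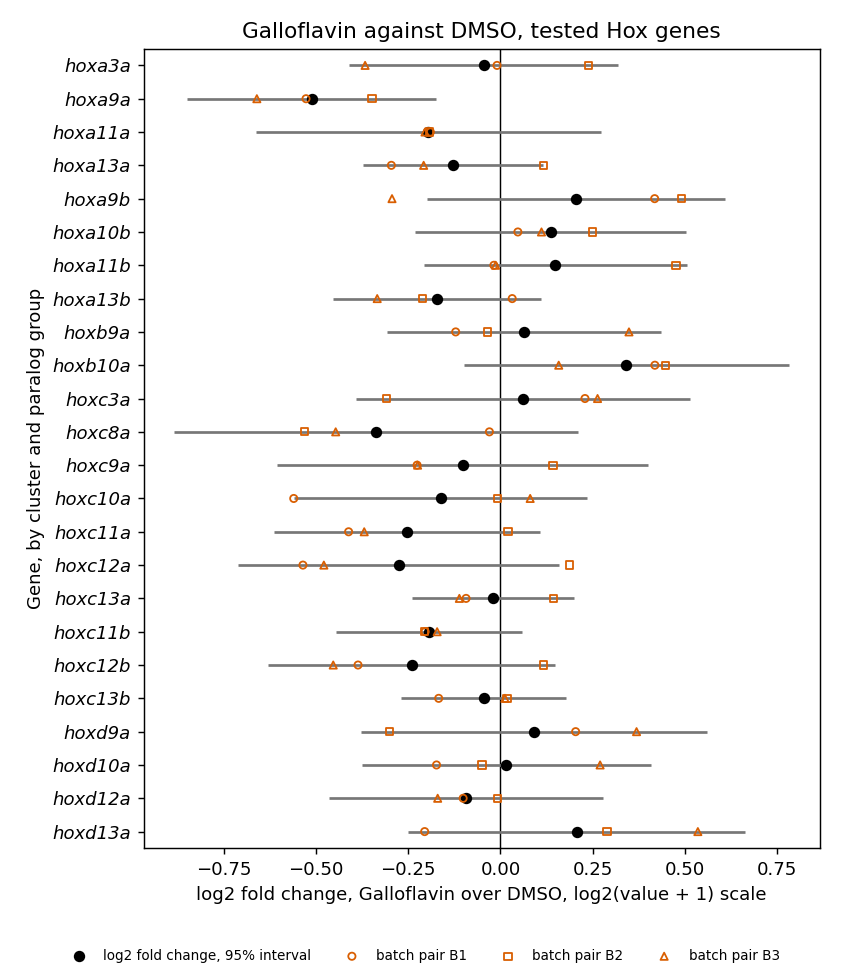
Log2 fold changes, Galloflavin against DMSO, computed from log2(value + 1) (x axis), for the 24 tested Hox genes (y axis); filled points are the limma estimate, lines its 95% interval and open symbols the differences within B1, B2 and B3. All intervals but that of hoxa9a (-0.85 to -0.17) cover 0, and hoxa9a had an adjusted p of 0.602.

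Group 13 genes act at the distal end of fins and limbs, and hoxc13a and hoxc13b varied least over the libraries among the 24 genes. The level of hoxc13a (ENSDARG00000070353) was 41.1, 38.1 and 39.7 normalised counts in DMSO B1, B2 and B3 and 38.5, 42.2 and 36.7 with Galloflavin. That of its duplicate hoxc13b (ENSDARG00000113877) was 29.0, 27.4 and 25.6 with DMSO and 25.7, 27.7 and 25.8 with Galloflavin. In both genes the groups overlapped. The highest library was 1.150 times the lowest for hoxc13a and 1.13 times for hoxc13b. The log2 fold changes were -0.02 (95% interval -0.24 to 0.20) and -0.05 (-0.27 to 0.18).

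For hoxa13a (ENSDARG00000100312) the levels were 44.8, 40.01 and 44.2 with DMSO and 36.3, 43.4 and 38.1 with Galloflavin. The log2 fold change was -0.13 ± 0.10 (SE, n = 3 per group; limma adjusted p = 0.823). Its duplicate hoxa13b (ENSDARG00000036254) stood at 58.8, 69.6 and 79.5 with DMSO and 60.2, 60.02 and 62.8 with Galloflavin (-0.17 ± 0.12, limma adjusted p = 0.795). The Galloflavin libraries of hoxa13b lay close together, at 61.0 ± 1.58 (SD, n = 3), while the DMSO libraries spread over 69.3 ± 10.3, and DMSO B1 was the lowest of all 6. The HoxDa gene hoxd13a (ENSDARG00000059256) had 1.40, 1.42 and 1.11 with DMSO and 1.08, 1.96 and 2.06 with Galloflavin. It was lower with Galloflavin in B1 and higher in B2 and B3, and rested on 21 to 50 reads a library (0.21 ± 0.19, limma adjusted p = 0.857). Below the limit for testing, hoxb13a had 1.09, 0.778 and 0.795 with DMSO and 1.196, 1.21 and 0.923 with Galloflavin, from 15 to 31 reads.

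Group 12 is held by HoxCa, HoxCb and HoxDa. The level of hoxc12a (ENSDARG00000070352) was 54.0, 41.7 and 41.8 normalised counts with DMSO and 36.9, 47.6 and 29.7 with Galloflavin. The Galloflavin library was the lower in B1 and B3 and the higher in B2 (-0.28 ± 0.19, limma adjusted p = 0.782). Its duplicate hoxc12b (ENSDARG00000103133) had the same order of signs, with 2.52, 2.23 and 2.60 against 1.70, 2.51 and 1.63 (-0.24 ± 0.17, adjusted p = 0.79). The values of hoxd12a (ENSDARG00000059263) were 2.06, 1.66 and 1.59 with DMSO and 1.85, 1.65 and 1.302 with Galloflavin, lower in each batch but with overlapping groups (-0.09 ± 0.16).

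In group 11, whose A and D members build the middle limb segment in mice, 4 genes were tested. The HoxCb gene hoxc11b (ENSDARG00000102631) was at 8.82, 9.003 and 9.17 with DMSO and 7.52, 7.68 and 8.03 with Galloflavin. Each group varied little, at 8.997 ± 0.177 and 7.74 ± 0.261 (SD, n = 3), and the groups did not overlap. Its log2 fold change was -0.19 ± 0.11 (95% interval -0.44 to 0.06, limma adjusted p = 0.737), and the level itself differed by -0.23, -0.23 and -0.19 on the log2 scale in B1, B2 and B3. The SE comes from a variance that limma moderates toward the value that a trend over all genes gives at the gene's mean level. The HoxCa duplicate hoxc11a (ENSDARG00000070351) had 20.4, 15.4 and 15.9 with DMSO and 15.1, 15.7 and 12.0 with Galloflavin (-0.25 ± 0.15, adjusted p = 0.756), with no lower value in B2.

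The HoxAa gene hoxa11a (ENSDARG00000104162) was lower with Galloflavin in each batch. Its levels were 2.25, 2.61 and 1.59 with DMSO and 1.85, 2.15 and 1.25 with Galloflavin, with log2 differences of -0.28, -0.27 and -0.35 between the levels of a batch. Both B3 libraries were the lowest of their groups (-0.20 ± 0.20, adjusted p = 0.868, or 0.693 with batch as a block). The duplicate hoxa11b (ENSDARG00000007009) had 4.86, 4.37 and 4.72 against 4.78, 6.46 and 4.67, so that only Galloflavin B2 stood apart (0.15 ± 0.15). The HoxDa gene hoxd11a, below the limit for testing, ranged from 0.488 to 0.812.

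Among the 24 tested genes, those of groups 9 and 10 gave both the lowest and the highest fold change. The HoxAa gene hoxa9a (ENSDARG00000105013) had 2.33, 2.27 and 2.81 normalised counts with DMSO (B1, B2, B3), and 1.31, 1.57 and 1.41 with Galloflavin. Every Galloflavin library was below every DMSO library, at 1.43 ± 0.129 against 2.47 ± 0.296 (SD, n = 3), a ratio of 0.579 between the group means. The log2 fold change was -0.51 ± 0.14 (95% interval -0.85 to -0.17), with an unadjusted p of 0.00881 and an adjusted p of 0.602 by limma, and 0.407 with batch as a block. Its value depended on the scale of the fit, from -0.22 with a pseudocount of 5 to -0.78 with edgeR, which fits whole reads and not log2(value + 1). The levels rest on 60, 67 and 53 reads with DMSO and 34, 40 and 26 with Galloflavin.

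Its duplicate hoxa9b (ENSDARG00000056819) did not share this pattern, with 5.32, 5.14 and 6.94 under DMSO and 7.45, 7.64 and 5.48 under Galloflavin (0.21 ± 0.17, limma adjusted p = 0.825). It was higher with Galloflavin in B1 and B2 and lower in B3. The log2 ratio of the levels of hoxa9a and hoxa9b, formed per library with nothing added, was -1.19, -1.18 and -1.31 with DMSO and -2.50, -2.29 and -1.96 with Galloflavin, without overlap. The difference of -1.02 between group means had an exact permutation p of 0.1, two-sided. This is the smallest that 3 libraries a group allow when the pairing by batch is ignored, as it was here, over 20 assignments of the 6 libraries. The permutation p was 0.6 after adjustment over the 6 duplicate pairs with both genes tested. For the other 5 pairs the difference ran from -0.48 (hoxa11a to hoxa11b) to 0.08 (hoxc12a to hoxc12b), with exact permutation p of 0.2 to 1. The ratios were compared after the values had been seen.

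The HoxBa gene hoxb10a (ENSDARG00000011579) stood at 2.95, 2.81 and 2.28 with DMSO and 4.28, 4.19 and 2.66 with Galloflavin, higher in each batch. It had the highest fold change of the 24, 0.34 ± 0.19 (95% interval -0.10 to 0.78, limma adjusted p = 0.736), and Galloflavin B3 lay among the DMSO values. The neighbouring group 9 gene hoxb9a ranged from 2.39 to 3.61 (0.06 ± 0.16). On HoxCa, hoxc10a (ENSDARG00000070348) had 25.6, 22.9 and 17.5 with DMSO and 17.01, 22.8 and 18.6 with Galloflavin (-0.16 ± 0.17). The log2 difference of the levels was -0.59 in B1, -0.01 in B2 and 0.09 in B3, so that the groups overlapped. The remaining genes of these groups overlapped as well, with ranges of 5.30 to 8.03 for hoxa10b (0.14 ± 0.16), 1.21 to 2.55 for hoxd9a (0.09 ± 0.20) and 0.954 to 1.48 for hoxd10a (0.02 ± 0.17).

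**Figure D3:**
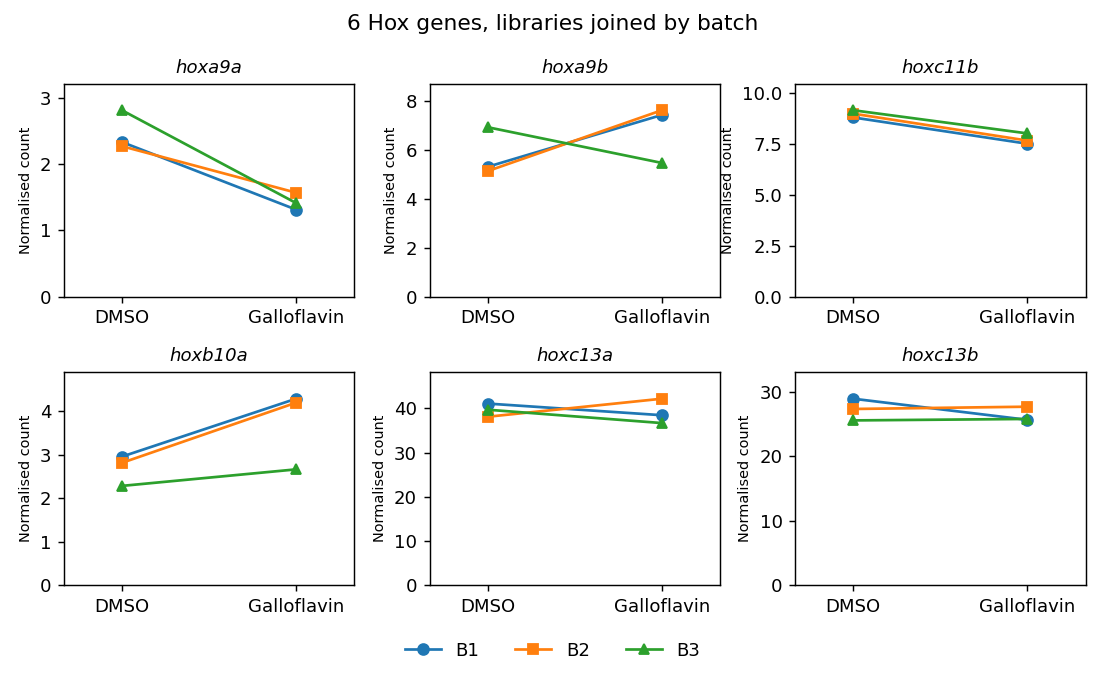
Normalised counts (y axis, from 0) of 6 Hox genes in DMSO and Galloflavin libraries, with lines joining the libraries of a batch. The lines of hoxa9a and hoxc11b fall in all 3 batches and those of hoxb10a rise. The line of hoxa9b falls in B3 only, that of hoxc13a rises in B2 only and that of hoxc13b falls in B1 only.

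Outside the posterior groups, 3 genes were tested, 2 of them of group 3. The level of hoxa3a (ENSDARG00000103862) was 16.97, 16.1 and 16.6 with DMSO and 16.9, 19.2 and 12.6 with Galloflavin. The DMSO libraries agreed to 16.5 ± 0.450 (SD, n = 3) and the Galloflavin libraries lay on both sides of them, at 16.2 ± 3.30 (-0.05 ± 0.15, limma adjusted p = 0.973). For hoxc3a (ENSDARG00000070339) the levels were 10.7, 9.41 and 9.01 with DMSO and 12.7, 7.404 and 11.02 with Galloflavin, higher in B1 and B3 and lower in B2 (0.06 ± 0.19, adjusted p = 0.968). Both are long genes in RefSeq whose spans include other Hox genes, 2 in the case of hoxa3a and 5 in that of hoxc3a. Counting is not stated to separate such genes, so their values are uncertain. The same limit holds for the genes inside these spans, among them hoxc6a, hoxc8a and hoxc9a.

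The central gene hoxc8a (ENSDARG00000070346) had 1.32, 1.86 and 0.954 with DMSO and 1.27, 0.979 and 0.434 with Galloflavin. It was lower in each batch, with log2 differences of the levels of -0.05 in B1, -0.93 in B2 and -1.14 in B3, and Galloflavin B3 held only 8 reads. Its fold change was -0.34 ± 0.23 (adjusted p = 0.792), and -0.11 with a pseudocount of 5 and -0.68 with DESeq2 and the block. With 4.29 times between its highest and lowest library it was the most variable of the 24. Among the members below the limit, hoxc6a, its neighbour in the cluster, had 0.621, 0.846 and 0.848 against 0.694, 0.274 and 0.163, from 3 to 25 reads. The ratio of its group means, 0.489, was lower than that of hoxa9a.

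**Figure D4:**
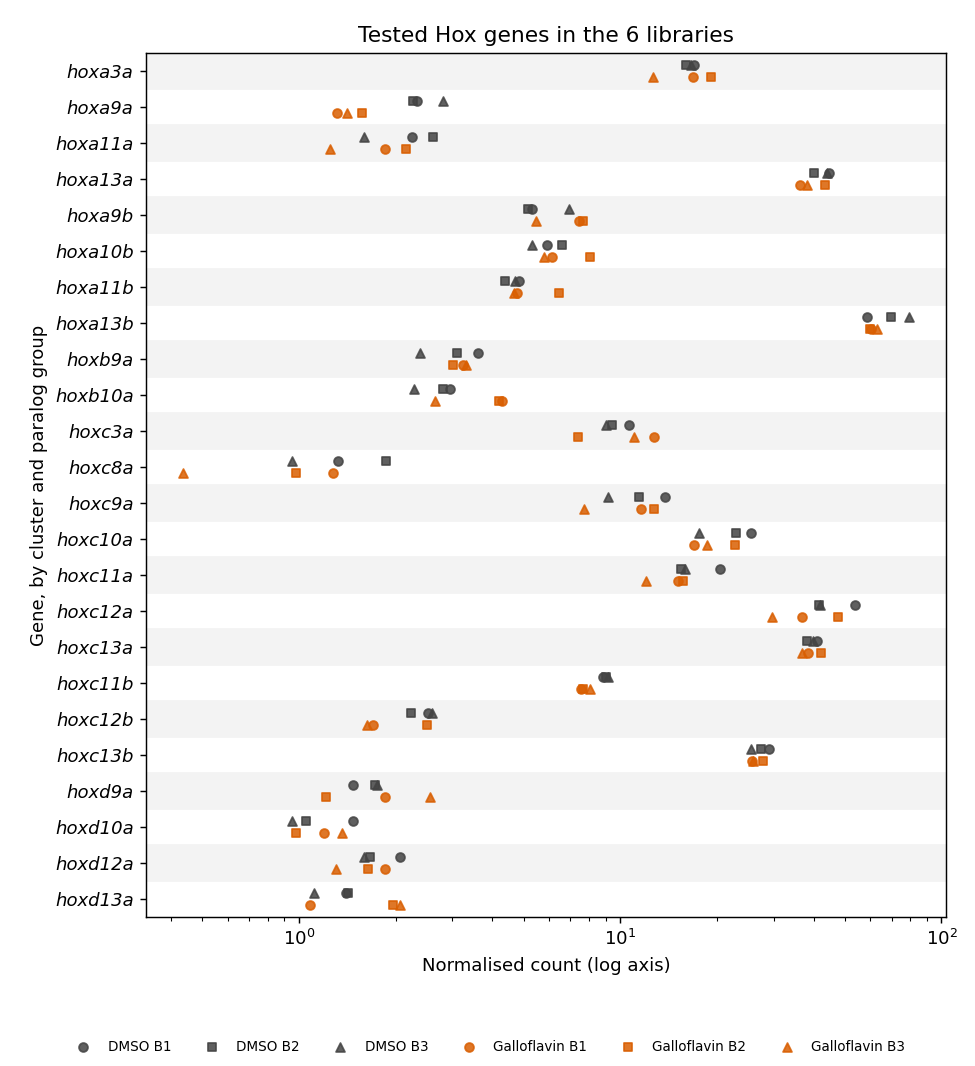
Normalised counts (x axis, log scale) of the 24 tested Hox genes (y axis) in the 6 libraries; grey marks DMSO and orange Galloflavin, and the symbol gives the batch. For 22 genes the groups overlap, and hoxa9a and hoxc11b have every orange symbol to the left of every grey one. Positions of different genes are not comparable as amounts, since the counts were not divided by length.

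Over all members, the summed Hox level was 368, 344 and 350.4 normalised counts in DMSO B1, B2 and B3 and 323, 355 and 303 with Galloflavin. On this scale Galloflavin B2 lay among the DMSO libraries. As a share of all reads, without the authors' scaling, the sum was 0.0374%, 0.0343% and 0.0373% with DMSO and 0.0320%, 0.0324% and 0.0309% with Galloflavin, so that the groups did not overlap. With scaling by total reads the median log2 fold change of all genes tested was also below 0, at -0.07, against -0.13 for the Hox genes. The scales differ by the column totals, since the deposited column of Galloflavin B2 sums to 1093130 and the others to 938945 to 1006709. With median-of-ratios scaling of the reads, the median log2 fold change was -0.0032 for all genes and -0.07 for the Hox genes. These lie near the values on the deposited scale, -0.0040 and -0.07. No test was made of these sums.

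Taken by cluster, log2 fold changes were below 0 for 4 of 4 tested HoxAa genes (median -0.16), 6 of 7 HoxCa genes (-0.16) and 3 of 3 HoxCb genes (-0.19). They were below 0 for 1 of 4 HoxAb genes (median 0.14), 0 of 2 HoxBa genes (0.20) and 1 of 4 HoxDa genes (0.05). With scaling by total reads alone, hoxc3a of HoxCa and hoxd10a of HoxDa also had values below 0, which made 17 of 24. Batches did not all share these signs. The medians in B1, B2 and B3 were -0.23, 0.02 and -0.22 for HoxCa, -0.20, 0.02 and -0.17 for HoxCb, 0.04, 0.36 and -0.15 for HoxAb, and -0.14, -0.03 and 0.32 for HoxDa. They were -0.24, -0.04 and -0.29 for HoxAa and 0.15, 0.21 and 0.25 for HoxBa. The summed level of the 7 HoxBa members was 8.93, 7.89 and 7.79 with DMSO and 10.5, 9.44 and 8.90 with Galloflavin. Galloflavin B3 was here just below DMSO B1, so that the groups overlapped. That of the 10 HoxCa members was 168, 142 and 135 against 134, 150.2 and 117. For the 5 HoxAb members the sum was 75.4, 86.1 and 97.5 with DMSO and 79.0, 82.6 and 79.2 with Galloflavin, a ratio of 0.930 between group means, where the median of the genes was above 0. Genes of a cluster are not independent of each other, and no test was made over a cluster or of a difference between clusters.

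Differences between batches were tested with treatment as a covariate. Of the 24 Hox genes 0 passed limma's F test over the 3 batches (background 0.0316%, lowest adjusted p = 0.349 for hoxc9a). With edgeR and DESeq2 0 passed as well, where 0 and 430 of all 15806 genes did. At an unadjusted p under 0.05 there was 1 of 24, or 4.17%, against 12.6% of all genes. This gene was hoxc9a (ENSDARG00000092809), with 13.7, 11.4 and 9.17 normalised counts with DMSO and 11.6, 12.7 and 7.71 with Galloflavin, so that both B3 libraries were the lowest. On the log2(value + 1) scale the 2 libraries of B3 lay on average 0.34 below their group means. The lowest value of a tested Hox gene fell in Galloflavin B3 for 9 of 24 genes, and the highest in DMSO B1 for 9 of 24. The same shares over all genes were not counted, so these are not read as a trait of Hox genes.

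The Hox genes varied over the 6 libraries by a median coefficient of variation of 17.5%, against 15.1% for all genes tested. The highest library was under 1.5 times the lowest for 7 of 24 Hox genes, and at least 2 times for hoxa9a, hoxa11a, hoxc8a and hoxd9a. Among all genes tested 50.2% stayed under 1.5 times, and the share at 2 times or more was not counted. Spread also depends on the number of reads, and Hox genes were not compared with genes of like level. The 4 genes at 2 times or more had means of 1.14 to 1.95 normalised counts, and 8 to 31 reads in the library with the fewest. The shares are therefore not read as a trait of Hox genes.

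Other genes of Hox function were read from 4 lists. Hox proteins bind DNA with cofactors of the Pbx, Meis and Pknox families, and 0 of 9 tested cofactor genes passed limma, 4 of them below 0 (median 0.04). The lowest p-value was that of pbx1a, at 5.24, 5.75 and 3.23 normalised counts with DMSO and 4.32, 7.33 and 5.86 with Galloflavin (0.26 ± 0.24, limma adjusted p = 0.856). Next came pknox1.1, at 21.1, 19.4 and 21.7 against 19.7, 22.9 and 26.7 (0.14 ± 0.13, adjusted p = 0.857), and meis2a, at 2.52, 3.79 and 3.39 against 3.86, 3.29 and 3.96 (0.16 ± 0.16, adjusted p = 0.868). In these 3 genes the groups overlapped. Cdx and Evx genes are homeobox relatives that act on or adjoin Hox clusters. Only evx1 of this list was tested, a gene required for the joints of zebrafish fin rays. It had 3.88, 2.94 and 4.13 normalised counts with DMSO and 4.98, 6.93 and 4.94 with Galloflavin, higher in each batch and without overlap (0.50 ± 0.18, unadjusted p = 0.0244, limma adjusted p = 0.644).

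Polycomb complexes keep Hox genes silent and Trithorax complexes keep them active. Of 29 tested genes of both, 0 passed and 20 were below 0, with a median of -0.06. Among them ezh2, the methyltransferase of Polycomb complex PRC2, had 40.0, 42.9 and 41.7 with DMSO and 31.5, 28.0 and 36.2 with Galloflavin (-0.38 ± 0.11, limma adjusted p = 0.602). The PRC2 subunit gene suz12a had 36.0, 33.9 and 31.8 against 31.2, 23.3 and 27.0 (-0.32 ± 0.13, adjusted p = 0.684). The PRC1 subunit gene phc2b lay in the other direction, at 21.4, 22.6 and 31.0 against 34.1, 31.4 and 34.6 (0.42 ± 0.15, adjusted p = 0.648). In each of these 3 genes the groups did not overlap. They were picked for the lowest p of their list, so this does not describe the list.

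Of 30 tested genes for other fin axes and for fin size, 0 passed, 16 were below 0 and the median was -0.02. The potassium channel gene kcnk5b, whose overactive form gives overgrown zebrafish fins, had 6.18, 7.82 and 9.54 normalised counts with DMSO and 13.1, 12.5 and 12.3 with Galloflavin. Every Galloflavin library was above every DMSO library (0.64 ± 0.16, unadjusted p = 0.00435, limma adjusted p = 0.602). The homeobox genes lhx2b, at 26.5, 24.9 and 25.3 against 18.9, 21.2 and 15.95 (-0.44 ± 0.12, adjusted p = 0.602), and dlx4b, at 11.6, 15.2 and 15.6 against 8.72, 9.72 and 10.96 (-0.48 ± 0.15, adjusted p = 0.602), lay below DMSO without overlap. Groups without overlap were found for 6.97% of all genes tested in the higher and 6.47% in the lower direction. The genes named here were picked for the lowest p of their list, so their lack of overlap cannot be compared with these shares. Of the other tested genes of this list only pax9 was without overlap, lower with Galloflavin.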

How the data were processed

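Libraries came from a stranded mRNA kit, per the labels' protocols, and alignment used STAR 2.7.10a and GRCz11, per the submitters' processing notes. How genes were counted and scaled is not given in the sources used. The signal deposited by the authors was a normalised count per gene, 1 column per library. Dividing a column by its lowest nonzero entry gave whole reads (100% of entries, tolerance 0.01 read). Groups, and the names B1, B2 and B3 read as batches, came from the labels. Nothing showed repeated libraries (chi-square per degree of freedom of 11.1 to 58.0 between libraries, over genes with at least 20 reads).

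Values were tested as log2(value + 1) in genes with a mean of at least 1 (15806 genes) with limma 3.58.1 in R 4.3.3, with a mean trend, two-sided, adjusted by Benjamini-Hochberg over all genes at 0.05. Alternatives included edgeR 4.0.16 and DESeq2 1.42.0 on the recovered reads. The names B1, B2 and B3 were read as batches, which pairs the libraries. Deviations from group means correlated within B1, B2 and B3 at 0.10, 0.08 and 0.49. The labels' protocols call each pool a biological replicate.

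Values in all libraries are given for tested genes of groups 11 to 13, the 10 Hox genes with the highest means, the 5 with the lowest p and the 3 with the lowest batch p, and the 3 genes with the lowest p of each other list. hoxa9b, hoxb13a and hoxc6a were added after their values were seen. The members were all rows that match the symbol rule, whatever their values. That rule and the lists were chosen with earlier results of these data known. Symbols missing from the table were taken from a gene name table, which added no Hox gene. RefSeq of another assembly gave names and neighbours only, and no genome or sequence was used here.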

Additional observations from a re-analysis of the deposited data

How the results depend on the processing

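No Hox gene passed in the comparison of Galloflavin with DMSO or of batches under any alternative run. Not every gene could pass in each: a minimum mean of 5 left 13 Hox genes to test, without hoxa9a and hoxb10a. For Galloflavin, DESeq2 with the block gave no adjusted p for hoxc8a, hoxd10a and hoxd13a. The alternatives changed the pseudocount (0.5 or 5), the filter (none, or a minimum mean of 5), the scaling (median of ratios or, added after seeing the data, the total of all reads), the test (edgeR or DESeq2, with and without the block), took batch as a block, or dropped 1 library or the 2 of a batch. Batch as a block (pairing by batch) left the count of Hox genes that passed at 0 and changed no call. The median log2 fold change of the tested Hox genes, -0.07, was -0.14 to -0.01 over the left-out libraries and batches, and -0.13 with scaling by total reads, where that of all genes was -0.07. Over all genes, 0 passed limma for Galloflavin, with 83 by DESeq2, 149 by DESeq2 with the replicate block and 0 to 1 over the left-out libraries and batches. Between batches 5 passed, with 1 at a pseudocount of 5, 8 without a filter, 0 at a minimum mean of 5, 1 with median-of-ratios scaling, 0 by edgeR, 430.0 by DESeq2, 1 with scaling by total reads (a test across batches without both libraries of a batch was also added after seeing the data) and 0 to 285 over the left-out libraries and batches. The cause was not tested.

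Of 469 single-gene values under alternatives 24 changed sign, in 10 genes whose main value lay between -0.16 and 0.15. With scaling by total reads hoxc3a stood at -0.0042 and hoxd10a at -0.021. Over the left-out libraries and batches, hoxa11b ran from -0.015 to 0.23, hoxa3a from -0.19 to 0.11, hoxb9a from -0.078 to 0.17, hoxc10a from -0.31 to 0.037, hoxc13a from -0.10 to 0.025, hoxc13b from -0.090 to 0.015, hoxc3a from -0.088 to 0.26, hoxc9a from -0.24 to 0.096, hoxd10a from -0.11 to 0.12 and hoxd9a from -0.075 to 0.29. Over them hoxa9a ran from -0.59 to -0.44, hoxc12a from -0.51 to -0.12, hoxb10a from 0.25 to 0.51 and hoxa9b from 0.062 to 0.45. Leaving out a library or batch moved the value of 22 of the 24 Hox genes by over 1.5 times (hoxa9a and hoxc11b were the others), and some alternative moved that of 23, hoxa9a included, with -0.22 at a pseudocount of 5 and -0.78 by edgeR. Members under 3 reads in a library are limited by depth.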

Other observations

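In RefSeq, on an assembly other than that of the files, the group 3 genes of 4 clusters span other Hox genes: hoxa3a spans hoxa4a and hoxa5a, hoxb3a spans hoxb4a, hoxb5a and hoxb6a, hoxc3a spans hoxc4a, hoxc5a, hoxc6a, hoxc8a and hoxc9a, and hoxd3a spans hoxd4a. The means over the 6 libraries, in normalised counts not divided by length and so not comparable between genes as amounts, were 16.4 for hoxa3a, 0.327 for hoxb3a, 10.04 for hoxc3a and 0.396 for hoxd3a. Inside the span of hoxc3a they were 0.253 for hoxc4a, 0.143 for hoxc5a, 0.575 for hoxc6a, 1.14 for hoxc8a and 11.1 for hoxc9a. Across the 6 libraries the highest value of hoxc3a was in Galloflavin B1 and that of hoxc9a in DMSO B1. Whether the reads of hoxa3a and hoxc3a come from transcripts that encode the group 3 proteins was not tested.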
